A study of Mus musculus with 8 samples.

Results

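The adrenergic receptor genes described here are Adrb1 and Adrb3 (beta receptors), Adra1a, Adra1b and Adra1d (alpha-1 receptors), and Adra2a, Adra2b and Adra2c (alpha-2 receptors). These 8 genes were taken by name from the 54385 gene identifiers of the table, and all 8 were found. PolyA RNA of interscapular brown adipose tissue was sequenced from 20-week-old C57BL/6N mice on chow, in 4 libraries of an adipocyte-specific Adcy3 knockout (cKO) and 4 libraries of controls (WT). Both groups are Adcy3-FL/FL, so the controls too carry the floxed form of this adenylyl cyclase gene. The cKO mice carry in addition 1 copy of a Cre recombinase driven by the promoter of the adiponectin gene Adipoq (Adipoq-wt/cre), so the deletion is aimed at adipocytes and other cells of the tissue keep the gene. The WT mice are labelled Adipoq-wt/wt, except WT replicate 4, whose title names a control while its genotype entry carries the Cre. It was kept with the controls. The design text of the series calls the tissue inguinal, and the sample labels, which call it interscapular, were followed.

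Sympathetic nerves in brown fat release noradrenaline, which binds these receptors on the surface of adipocytes and of other cells. Beta receptors act through the stimulatory G protein Gs on adenylyl cyclases, which make cyclic AMP and so switch on protein kinase A, lipolysis and heat production by the uncoupling protein Ucp1. Alpha-1 receptors act through Gq on phospholipase C and calcium, and alpha-2 receptors act through Gi, which holds adenylyl cyclases back. Adcy3 encodes 1 of the cyclases downstream of the beta receptors, and the comparison asks whether the RNA of the receptors differed where this cyclase was removed from adipocytes.

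The libraries held 10713043 to 16243318 estimated counts in cKO and 12977094 to 32437214 in WT. Adcy3 was lower in every cKO library (17.9 to 25.3 CPM, counts scaled to the size of the library) than in any WT library (61.6 to 118 CPM), and edgeR gave it a log2 fold change of -2.26 ± 0.21 (SE) at an adjusted p of 0.000925. WT replicate 4 held 118 CPM of it, and with that library moved to cKO the log2 fold change was -1.26 (edgeR adjusted p = 0.747). With the replicate number as a block the log2 fold change of Adcy3 was -2.23 (edgeR adjusted p = 0.225). Adcy3 shares 22.1% of its exon bases with Cenpo on the opposite strand. Brown adipocyte markers were abundant, the 10 listed markers summing to 10206 to 14349 CPM in cKO and 11509 to 13486 CPM in WT, with Ucp1 at 3157 ± 1024 CPM in cKO and 2565 ± 322 CPM in WT (SD, n = 4 each). Skeletal muscle RNA varied within both groups, its 14 markers summing to 194 to 11262 CPM in cKO and 73.7 to 8869 CPM in WT with 0 of the 14 at 0 in every library. Whether the libraries stem from different animals is not in the labels, and the p-values cover only the spread seen among them, which may be technical. In tissue RNA, fewer cells of a type and less RNA per cell cannot be told apart.

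Promoter sequence was on hand from RefSeq (build GRCm38.p6) for 5 of the 8 genes, namely Adrb1, Adra1b (with 2 annotated starts), Adra2a, Adra2b and Adra2c. The 250 bases before the annotated start are shown for 3 of them: Adrb1, an abundant member, Adra2a, the least abundant, and Adra2b, whose level moved with brown adipocyte markers across libraries. All 3 are on the plus strand. Adrb1 is taken from chr19:56721867-56722116, Adra2a from chr19:54045009-54045258 and Adra2b from chr2:127362929-127363178. The RefSeq start of Adra2a used here lies inside the gene as GENCODE places it below, downstream of the GENCODE start, so its window overlaps that span. Capitals mark the motifs TGACG (half-site of the cyclic AMP response element), GGGCGG (GC box), CCAAT and TATAAA on either strand.
Adrb1: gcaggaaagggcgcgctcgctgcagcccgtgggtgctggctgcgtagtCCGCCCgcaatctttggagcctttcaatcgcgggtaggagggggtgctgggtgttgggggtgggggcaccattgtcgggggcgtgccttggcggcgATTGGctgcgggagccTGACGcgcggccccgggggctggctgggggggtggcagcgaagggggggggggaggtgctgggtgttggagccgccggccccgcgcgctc
Adra2a: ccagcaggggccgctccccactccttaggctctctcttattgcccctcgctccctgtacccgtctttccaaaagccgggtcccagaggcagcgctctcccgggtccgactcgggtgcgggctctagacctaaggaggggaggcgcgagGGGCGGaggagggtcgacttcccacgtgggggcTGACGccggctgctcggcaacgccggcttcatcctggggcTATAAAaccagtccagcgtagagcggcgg
Adra2b: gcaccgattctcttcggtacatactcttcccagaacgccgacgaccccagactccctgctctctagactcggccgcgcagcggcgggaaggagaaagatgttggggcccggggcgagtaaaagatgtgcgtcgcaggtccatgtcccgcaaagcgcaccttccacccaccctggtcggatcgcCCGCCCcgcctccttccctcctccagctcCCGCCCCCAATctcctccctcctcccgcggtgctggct
TGACG stands on the plus strand 90 bases before the Adrb1 start and 69 bases before the Adra2a start, and it was not found in the windows of the other 3 genes. It was found in 17.8% of 32851 promoter windows of the same length. The full element TGACGTCA, which holds TGACG, was in none of these 5 genes' windows and in 1.55% of all windows. GGGCGG was found for Adrb1, for Adra2a, for 1 of the 2 Adra1b starts and for Adra2b, which holds it at 67 and at 38 bases before the start on the minus strand, and in 32.7% of all windows. CCAAT was found for Adrb1, Adra2b, Adra2c and the other Adra1b start and in 33.8% of all windows, and TATAAA for Adra2a, 29 bases before the start, and in 12.4% of all windows. Adrb1 and Adra2a both hold the TGACG half-site and the GC box, and whether either motif bears on RNA level was not tested. A match of letters is a description of these windows and not a binding site.

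The beta-3 receptor gene Adrb3 was by far the most abundant of the 8, and its level did not pass the test for a difference. Adrb3 (ENSMUSG00000031489, chromosome 8, 27225776 to 27250616, minus strand, GRCm38) had 219, 199, 158 and 205 CPM in cKO replicates 1 to 4, against 172, 186, 209.6 and 207 CPM in WT replicates 1 to 4. The lowest and the highest library were both cKO, replicates 3 and 1, and the groups overlapped. It averaged 195 ± 26.3 CPM in cKO and 193.5 ± 18.0 CPM in WT (SD, n = 4 each), with a log2 fold change of 0.02 (95% interval -0.26 to 0.29, edgeR adjusted p = 0.992). The interval spans 0.837-fold to 1.22-fold. Over all 8 libraries the highest value was 1.39 times the lowest, the narrowest span among the 8 genes.

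Part of the Adrb3 count could belong to another gene. Gm45470, an annotated antisense gene on the opposite strand, overlaps 839 of the 3376 exon bases of Adrb3 (24.9%), and 22% of the 31-base sequences of Adrb3 transcripts occur in transcripts of other genes, mainly this one. Whether counting used strand is not given in the sources used here, so reads of the shared stretch cannot be told apart. Gm45470 had 21.7, 24.0, 14.5 and 29.3 CPM in cKO replicates 1 to 4, against 20.8, 21.96, 22.7 and 19.1 CPM in WT replicates 1 to 4, overlapping between groups. Its counts amounted to 11.35% ± 2.30 of the Adrb3 counts in cKO and 10.99% ± 1.31 in WT (SD, n = 4 each, two-sided exact permutation p = 0.8). Its own log2 fold change was 0.08 (95% interval -0.31 to 0.47, edgeR adjusted p = 0.974).

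The beta-1 receptor gene Adrb1, the other Gs-coupled member, also did not pass the test. Adrb1 (ENSMUSG00000035283, chromosome 19, 56722199 to 56733113, plus strand) had 17.5, 21.3, 19.8 and 18.7 CPM in cKO, against 23.9, 11.7, 17.8 and 19.7 CPM in WT. All 4 cKO values lay inside the range of the WT values. WT replicate 2 was the lowest library and WT replicate 1 the highest. The coefficient of variation was 8.32% in cKO and 27.8% in WT, and the difference in spread was not tested. The log2 fold change was 0.08 (95% interval -0.32 to 0.48, edgeR adjusted p = 0.976).

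**Figure D1:**
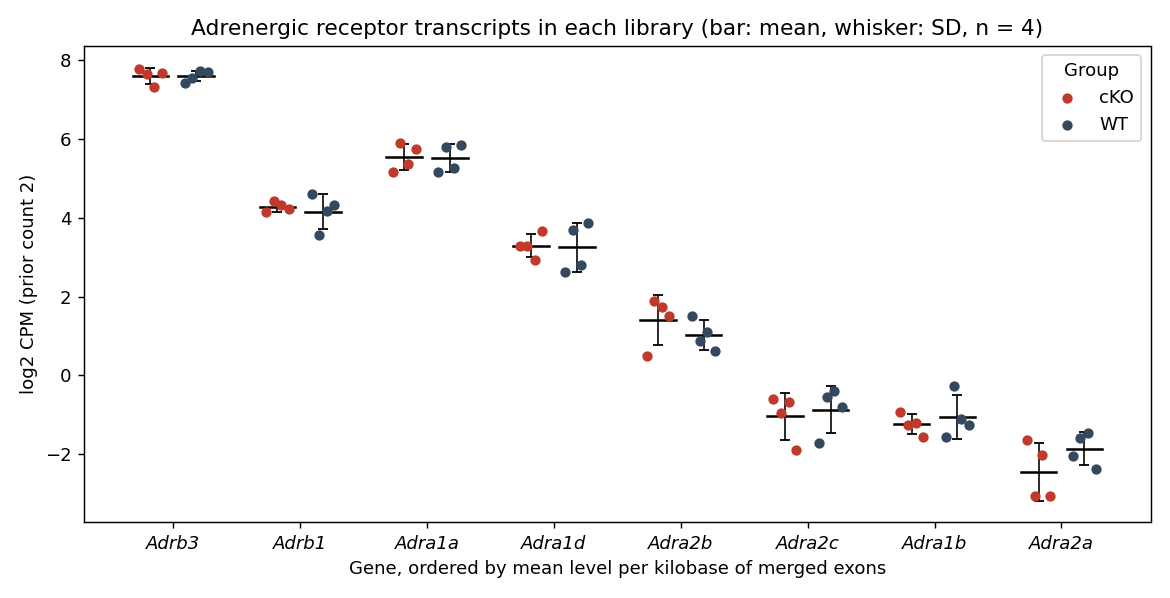
log2 CPM of each of the 8 receptor genes (y axis, prior count 2) by gene (x axis, ordered by mean level per kilobase of merged exons), with 1 point per library, red for cKO and dark for WT, the mean as a bar and the SD as a whisker (n = 4). Every gene shows overlapping groups, with Adrb3 on top, Adra1a, Adrb1 and Adra1d next, and Adra2c, Adra1b and Adra2a close to the detection limit.

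Among the alpha-1 receptor genes, Adra1a and Adra1d were well detected and Adra1b was barely so. Adra1a (ENSMUSG00000045875, chromosome 14, 66635251 to 66771168, plus strand) had 35.5, 59.3, 41.3 and 53.7 CPM in cKO, against 35.9, 55.2, 38.4 and 57.7 CPM in WT. In each group replicates 2 and 4 were high and replicates 1 and 3 low, so the spread within groups was larger than the distance between them. Adra1a averaged 47.5 ± 10.9 CPM in cKO and 46.8 ± 11.3 CPM in WT (SD, n = 4 each), with a log2 fold change of 0.02 (95% interval -0.42 to 0.47, edgeR adjusted p = 0.993).

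Adra1d (ENSMUSG00000027335, chromosome 2, 131545850 to 131562283, minus strand) had 9.58, 9.67, 7.53 and 12.6 CPM in cKO, against 6.08, 12.9, 6.88 and 14.4 CPM in WT. Again WT replicates 2 and 4 were the high ones, and the 4 cKO values lay between the WT extremes. The log2 fold change was -0.02 (95% interval -0.66 to 0.62, edgeR adjusted p = 0.996). The antisense gene Gm14285 overlaps 7.74% of the exon bases of Adra1d, but it held 0 to 4 counts per library.

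Adra1b (ENSMUSG00000050541, chromosome 11, 43774606 to 43901210, minus strand) did not pass the count filter. It had 6, 3, 5 and 3 counts in cKO replicates 1 to 4, against 7, 10, 7 and 4 in WT replicates 1 to 4, which is 0.314 CPM over the pooled cKO libraries and 0.351 CPM over the pooled WT libraries. The ratio of the pooled rates was 0.893, with an exact 95% counting interval of 0.459 to 1.69. Such intervals cover counting error only.

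Of the alpha-2 receptor genes only Adra2b passed the filter, and it had the largest fitted change among the 5 receptor genes that did, without passing the test. Adra2b (ENSMUSG00000058620, chromosome 2, 127363208 to 127367221, plus strand) had 1.28, 3.59, 3.23 and 2.74 CPM in cKO, against 2.70, 1.71, 2.03 and 1.43 CPM in WT. The cKO libraries included both extremes, with replicates 2, 3 and 4 above every WT library and replicate 1 below all of them. It averaged 2.71 ± 1.013 CPM in cKO and 1.97 ± 0.546 CPM in WT (SD, n = 4 each), with a log2 fold change of 0.44 ± 0.34 (SE, 95% interval -0.31 to 1.18, edgeR adjusted p = 0.901). These values rest on 19 to 51 counts per cKO library and 19 to 87 per WT library.

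Adra2c and Adra2a were at the limit of detection. Adra2c (ENSMUSG00000045318, chromosome 5, 35278319 to 35281763, plus strand) had 8, 4, 8 and 2 counts in cKO, against 6, 8, 13 and 6 in WT, with a ratio of pooled rates of 0.981 (exact 95% counting interval 0.545 to 1.73). Adra2a (ENSMUSG00000033717, chromosome 19, 54044151 to 54048982, plus strand) had 3, 0, 2 and 0 counts in cKO, against 4, 3, 5 and 1 in WT. The libraries at 0 are cKO replicates 2 and 4, where a count of 0 allows up to 0.299 and 0.222 CPM, close to the 0.248 CPM of the highest WT library. The ratio of pooled rates was 0.566 (exact 95% counting interval 0.158 to 1.69), so a difference was not detectable at this depth.

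Over the whole table, edgeR's quasi-likelihood test with Benjamini-Hochberg adjustment called 10 of 14553 genes (0.0687%) at an adjusted p under 0.05. Of the 5 receptor genes that passed the count filter (Adrb1, Adrb3, Adra1a, Adra1d and Adra2b) it called 0, and 0 had an unadjusted p under 0.05, a mark that 5.6% of all genes tested passed. DESeq2, which called 0.316% of genes, and limma-voom, which called 0.0687%, also called 0 of them. Without a filter, where edgeR called 0.262% of 35502 genes, 0 of the 8 were called, and Adra1b, Adra2a and Adra2c had log2 fold changes of -0.31 ± 0.75, -0.87 ± 1.16 and -0.19 ± 0.68 (SE). The groups overlapped for all 8 genes, whereas they did not overlap for 3.56% of the filtered genes. A p that misses the threshold does not show equal levels, and the intervals give what these libraries leave possible.

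**Figure D2:**
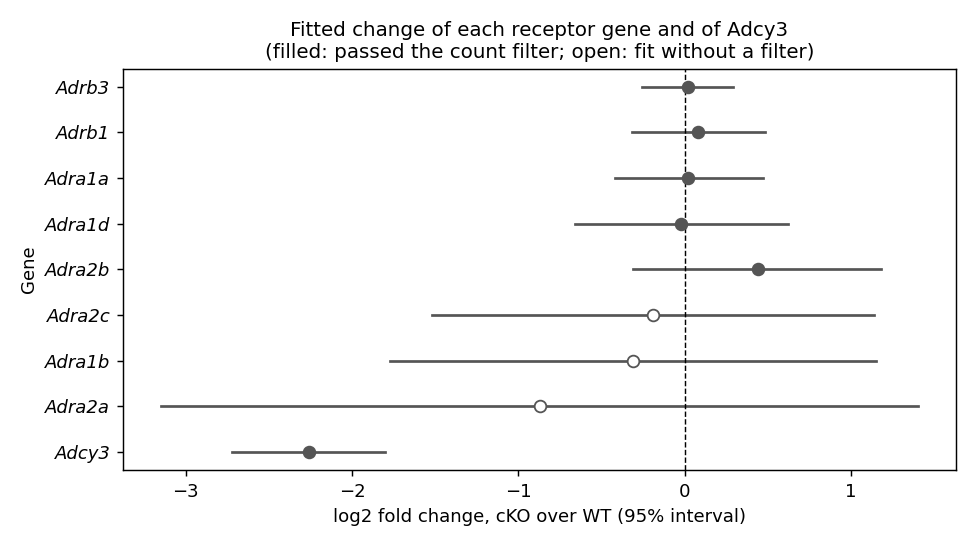
Fitted log2 fold change of cKO over WT (x axis) with its 95% interval for each receptor gene and for Adcy3 (y axis), filled where the gene passed the count filter and open where the fit without a filter was used. Every receptor interval includes 0, with that of Adrb3 the narrowest (-0.26 to 0.29) and that of Adra2a the widest (-3.15 to 1.4), while that of Adcy3 runs from -2.72 to -1.80.

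Levels of different genes were set side by side as CPM per kilobase of merged exons. On that scale the mean of Adrb3 over all libraries ranked 564 from the top among the 14541 filtered genes with an annotated length. Adrb3 stood at 57.9 ± 7.78 in cKO and 57.3 ± 5.33 in WT (SD, n = 4 each), and its mean was 10.4 times that of the next receptor gene. Adrb1 (mean 5.56 over all libraries), Adra1a (5.40) and Adra1d (5.24) followed and did not differ beyond their spread, Adrb1 exceeding Adra1a in 4 of 8 libraries and Adra1a exceeding Adra1d in 4 of 8. Adra2b was lower still at 0.583, below Adra1d in 8 of 8 libraries. Adra2c (0.125) and Adra1b (0.104) overlapped, and Adra2a was lowest at 0.0256.

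The place of Adra1a depends on its length. Its merged exons span 8728 bases but its longest transcript 4282, and per kilobase of the longest transcript Adra1a stood at 11, above Adrb1 (6.37) in 8 of 8 libraries. Which transcripts were present cannot be read from counts per gene. Adrb3 was first and Adra2b, Adra2c, Adra1b and Adra2a were the fifth to the eighth on either scale.

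Adrb3 made up most of the summed level of the 8 genes in every library. Its share was 81.3%, 75.4%, 75.0% and 76.1% in cKO replicates 1 to 4, against 77.0%, 76.0%, 81.5% and 74.8% in WT replicates 1 to 4. The groups overlapped, and the mean share was 76.9% ± 2.94 in cKO and 77.3% ± 2.90 in WT (SD, two-sided exact permutation p = 0.743, n = 4 each, smallest possible p 0.0286). Per kilobase of the longest transcript the shares were 74.6% ± 3.50 in cKO and 75.0% ± 3.17 in WT (SD). By class, beta receptors took 84.6% ± 2.17 in cKO and 84.7% ± 3.89 in WT, alpha-1 receptors 14.3% ± 1.97 in cKO and 14.4% ± 4.06 in WT, and alpha-2 receptors 1.10% ± 0.406 in cKO and 0.902% ± 0.220 in WT (SD, n = 4 each, two-sided exact permutation p = 1.000, 0.971 and 0.400).

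The summed level of the 8 genes was 79.9, 78.3, 62.4 and 79.9 CPM per kilobase in cKO, against 66.0, 72.6, 76.2 and 81.8 in WT. The lowest library was cKO replicate 3 and the highest WT replicate 4. The means were 75.1 ± 8.49 in cKO and 74.2 ± 6.64 in WT (SD, n = 4 each, two-sided exact permutation p = 0.771).

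**Figure D3:**
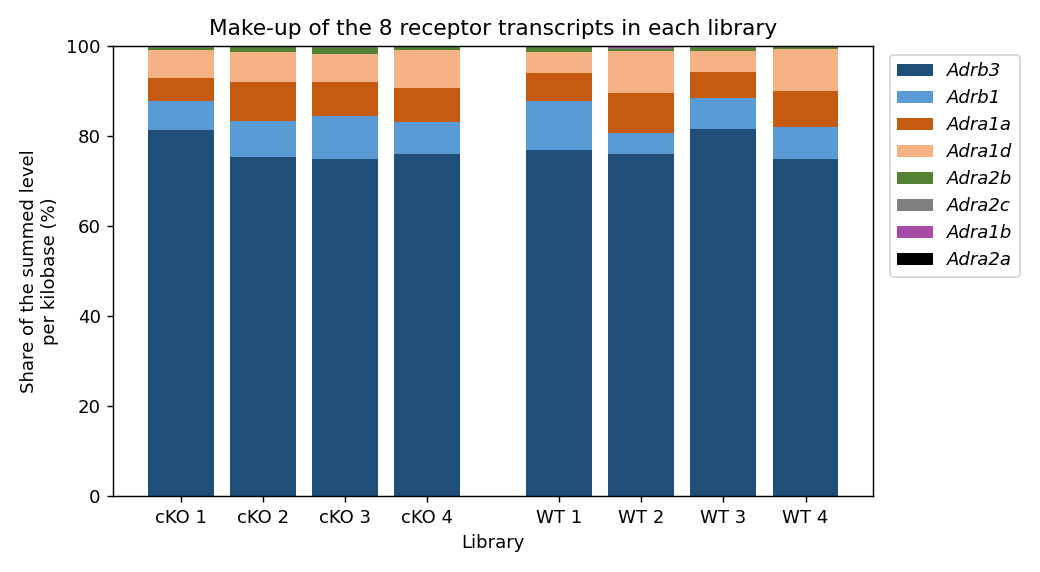
Share of each receptor gene in the summed level per kilobase of merged exons of the 8 genes (y axis, percent) in each library (x axis, 4 cKO then 4 WT), as stacked bars with 1 colour per gene. Adrb3 fills 74.8% to 81.5% of every bar, and Adrb1, Adra1a and Adra1d share nearly all of the rest.

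Receptor genes varied from library to library more than between the groups, and this spread was set beside markers of the cell types the tissue could hold. The 5 receptor genes with a mean of at least 1 CPM were related to the mean log2 CPM of 7 marker lists over the 8 libraries, 35 relations in all, with exact permutation p-values over pairings. Of these, 7 had an unadjusted p under 0.05 and 1 passed after Benjamini-Hochberg adjustment. Adra2b rose and fell with the brown adipocyte markers (Pearson r = 0.96, exact permutation p = 9.9e-05, adjusted p = 0.00347; Spearman rho = 0.93, exact permutation p = 0.00223, adjusted p = 0.0781). The other receptor genes did not share this relation. With the same markers r was -0.56 for Adrb3, 0.42 for Adrb1, 0.14 for Adra1a and -0.47 for Adra1d (adjusted exact permutation p from 0.521 to 0.782).

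The marker score ran from 8.64 to 9.12, with cKO replicate 1 lowest and cKO replicate 2 highest, and Adra2b had the same 2 libraries as its extremes. Without cKO replicate 1 and WT replicate 4, the libraries farthest from the median score, r was 0.91 (exact permutation p = 0.0111). Within groups r was 0.99 in cKO and 0.98 in WT, each over 4 libraries and given as a description. Leaving out cKO replicate 3 took the adjusted p past the threshold (r = 0.95, adjusted exact permutation p = 0.0556), while r stayed between 0.94 and 0.97 whichever library was left out. With the skeletal muscle markers Adra2b had an r of -0.56 (adjusted exact permutation p = 0.521), and -0.74 less the group means (0.166). The libraries lowest on the brown score, cKO replicate 1 and WT replicate 4, were highest on the muscle score (9.05 and 8.73). The library highest on the brown score, cKO replicate 2, had 7.28. Whether muscle RNA accounts for the brown relation was not tested.

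Single markers followed Adra2b less closely than their mean did. Of the 10 markers, 8 had a positive r and 2 a negative r, from -0.12 for Plin5, a lipid droplet protein, to 0.87 for Elovl3, a fatty acid elongase of brown fat (exact permutation p = 0.780 and 0.00342, unadjusted). Fabp4, a fatty acid binding protein of adipocytes, had an r of 0.72 and Ucp1 an r of 0.54 (exact permutation p = 0.0390 and 0.168, unadjusted). In a fit with the brown adipocyte score as a covariate, chosen after seeing the data, the log2 fold change of Adra2b was 0.26 ± 0.25 (SE, edgeR adjusted p = 0.870).

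**Figure D4:**
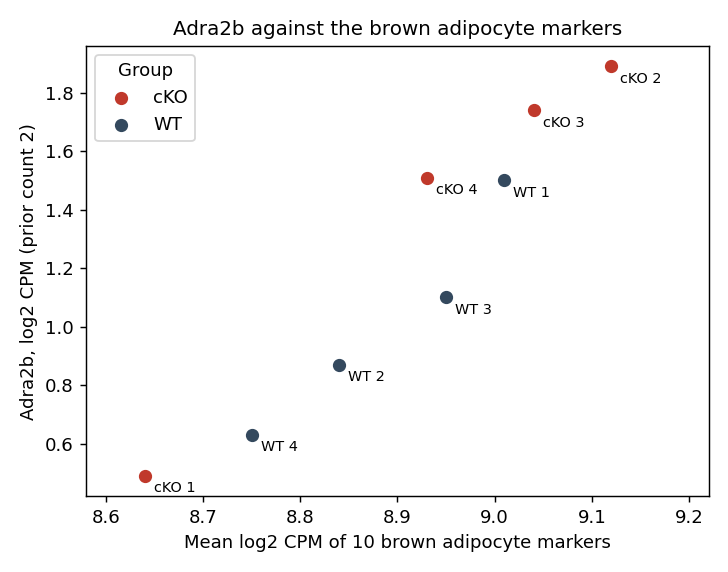
Adra2b in log2 CPM (y axis, prior count 2) against the mean log2 CPM of 10 brown adipocyte markers (x axis), with 1 point per library, red for cKO and dark for WT. The points climb together from cKO replicate 1 at a score of 8.64 to cKO replicate 2 at 9.12 (r = 0.96).

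Adra1a was low where macrophage and other immune markers were high, short of the threshold (Pearson r = -0.84, exact permutation p = 0.00313, adjusted p = 0.0547; Spearman rho = -0.90, exact permutation p = 0.00456, adjusted p = 0.0799). All 10 of those markers had a negative r, from -0.87 for the mannose receptor Mrc1 to -0.52 for the scavenger receptor Cd163. The relation passed without cKO replicate 4 (r = -0.85) or without WT replicate 2 (r = -0.93), each with an adjusted exact permutation p of 0.0243. Without any other single library it did not pass (r from -0.85 to -0.80, adjusted exact permutation p from 0.0660 to 0.278). The immune marker score was lowest in cKO replicate 2 (2.23) and WT replicate 4 (2.52), the libraries with the highest Adra1a in their groups. Without these 2 libraries r was -0.84 (exact permutation p = 0.0264).

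Adra1d and Adrb3 were high in libraries with much skeletal muscle RNA, without passing the adjusted threshold. Pearson r with the muscle score was 0.80 for Adra1d (exact permutation p = 0.0189, adjusted p = 0.165) and 0.77 for Adrb3 (exact permutation p = 0.0256, adjusted p = 0.179), and Spearman rho was 0.64 and 0.71 (exact permutation p = 0.0962 and 0.0576). Without cKO replicate 3 and WT replicate 1, the libraries with 3.21 and 1.54 on the muscle score, r was 0.57 for Adra1d and 0.27 for Adrb3 (exact permutation p = 0.244 and 0.610). Both relations were weaker there, over fewer libraries that span less of the muscle score. Within cKO and WT r was 0.57 and 0.94 for Adra1d, and 0.98 and 0.64 for Adrb3, given as a description. With the muscle score as a covariate the log2 fold change of Adrb3 was -0.05 (edgeR adjusted p = 0.961). Schwann cell markers had an unadjusted p under 0.05 with Adra1d (r = 0.70, exact permutation p = 0.0318, adjusted p = 0.186) and with Adra2b (r = -0.68, exact permutation p = 0.0419, adjusted p = 0.210). Without WT replicates 1 and 4 these were 0.15 for Adra1d and -0.94 for Adra2b (exact permutation p = 0.822 and 0.00417). Fibroblast and preadipocyte markers had an r of -0.71 with Adra1a (exact permutation p = 0.0179, adjusted p = 0.165), and -0.55 without cKO replicates 1 and 2 (exact permutation p = 0.275). For Adrb1, 0 of the 7 relations had an unadjusted p under 0.05. With the brown adipocyte markers its Pearson r was 0.42 (exact permutation p = 0.308), its Spearman rho 0.71 (exact permutation p = 0.0576, adjusted p = 0.252), and its r without cKO replicate 1 and WT replicate 4 was 0.81 (exact permutation p = 0.0611).

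**Figure D5:**
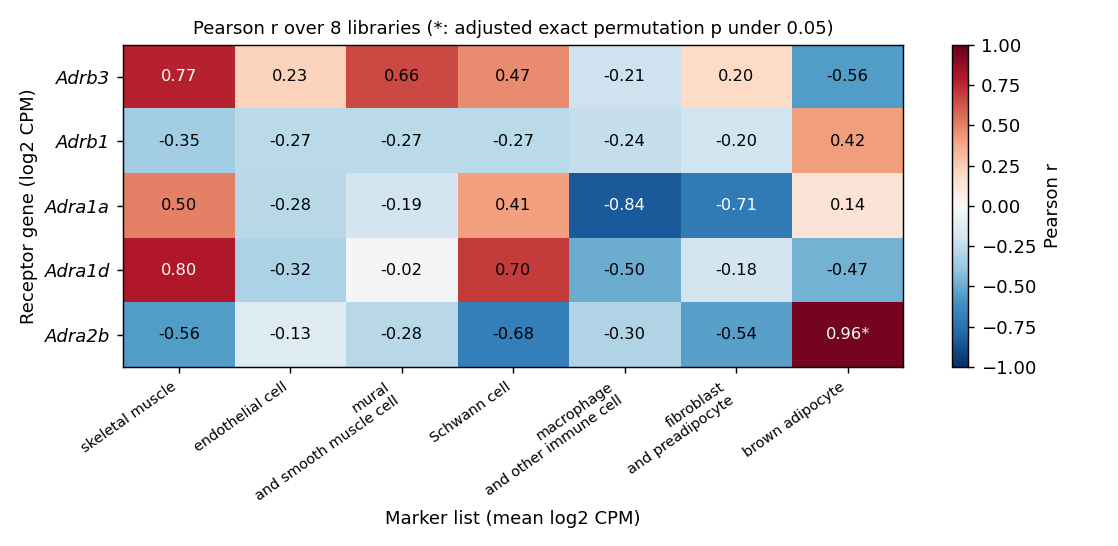
Pearson r over 8 libraries between log2 CPM of 5 receptor genes (rows) and the mean log2 CPM of 7 cell type marker lists (columns), in colour from -1 to 1 with the value printed. The asterisk marks the relation of Adra2b with the brown adipocyte list (0.96), which passed after adjustment over the 35 relations.

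Between the receptor genes themselves, 0 of 10 pairs passed after adjustment and 1 had an unadjusted p under 0.05. That pair was Adra1a with Adra1d (Pearson r = 0.79, exact permutation p = 0.0385, adjusted p = 0.385; Spearman rho = 0.71, exact permutation p = 0.0576), and without WT replicates 1 and 4 its r was 0.66 (exact permutation p = 0.179). The beta receptor genes Adrb1 and Adrb3 did not pass (Pearson r = -0.17, exact permutation p = 0.682; Spearman rho = -0.52, exact permutation p = 0.197), and r was 0.60 without cKO replicate 3 and WT replicate 1 (exact permutation p = 0.240), so neither the sign nor the size of their relation is settled by these libraries.

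The genes with the most similar library-to-library pattern were found by Pearson r of log2 CPM less the group means, among 13563 other genes with at least 1 CPM. Over 8 libraries many genes reach such values, and they are given as a description. For Adrb3 these were Heph (r = 0.986), Heatr6 (0.982) and Crtc1 (0.968), for Adrb1 Mllt1 (0.978), U2surp (0.978) and E330034L11Rik (0.967), and for Adra1a Ankrd50 (0.978), Fgd4 (0.977) and Tmem161b (0.964). For Adra1d they were Tada2b (0.975), 5930430L01Rik (0.967) and Osbpl5 (0.964), and for Adra2b Irf2bpl (0.988), Txndc12 (0.987) and Clptm1 (0.986).

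The G proteins and enzymes that carry the signal of each receptor class were examined next, from lists chosen with earlier results of these data known. Of the 15 measured genes of Gs proteins, adenylyl cyclases and protein kinase A, 1 fell, Adcy3 itself, and 0 rose, with a median log2 fold change of 0.05, against 0.01 over all genes tested. Of the 4 measured Gi genes 0 were called (median -0.08). They included Gnai2 with 88.0 ± 12.2 CPM in cKO and 98.3 ± 12.6 CPM in WT and Gnai1 with 51.4 ± 5.92 CPM in cKO and 50.5 ± 5.84 CPM in WT (SD, n = 4 each). Of the 9 measured genes of Gq proteins, phospholipase C beta and inositol trisphosphate receptors 0 were called (median 0.02). Gna11 had 85.4 ± 3.49 CPM in cKO and 95.1 ± 3.93 CPM in WT, and Gnaq 52.6 ± 3.74 CPM in cKO and 51.8 ± 2.07 CPM in WT (SD, n = 4 each). Apart from Adcy3, 0 genes of these 3 lists had an unadjusted edgeR p under 0.05. Over all genes tested 0.0687% were called and 5.6% had an unadjusted p under 0.05.

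Genes that switch receptors off did not pass either. Among the 8 measured receptor kinases, arrestins and RGS proteins, 0 were called and 0 had an unadjusted p under 0.05 (median -0.03). Over all genes tested these shares were 0.0687% and 5.6%, so such counts of 0 say little about so few genes. Grk2, a kinase that phosphorylates activated beta receptors, had 53.0 ± 2.45 CPM in cKO and 52.9 ± 5.64 CPM in WT, and Rgs2, which shortens Gq signals, 60.3 ± 40.2 CPM in cKO and 59.5 ± 13.5 CPM in WT (SD, n = 4 each). Of the 9 listed genes of catecholamine synthesis, uptake and breakdown, 5 passed the filter and 0 were called (median 0.01). The monoamine oxidase gene Maob had 97.1 ± 15.4 CPM in cKO and 83.5 ± 19.0 CPM in WT (SD, n = 4 each).

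Of the 12 measured genes known to respond to adrenergic stimulation in brown fat, 0 were called, 10 had positive and 2 negative log2 fold changes, and the median was 0.33. Over all genes tested 51.8% were positive and the median was 0.01. Those with an unadjusted edgeR p under 0.05, a mark passed by 5.6% of all genes, were the transcription factor genes Nr4a2 (16.8 CPM in cKO and 10.4 CPM in WT, log2 fold change 0.70, adjusted p = 0.805) and Fos (1.31 CPM in cKO and 0.550 CPM in WT, log2 fold change 1.29, adjusted p = 0.882). Without a count filter edgeR called Nr4a2 (log2 fold change 0.68, adjusted p = 0.0282). It was called under no other setting. The fit without a filter was also the more permissive, with 93 genes called against 10. Its adjusted p for Adcy3 was 5.7e-57, against 0.000925 with the filter. The mean log2 CPM of all 13 listed genes was 6.41 ± 0.19 in cKO and 5.95 ± 0.23 in WT (SD, n = 4 each, two-sided exact permutation p = 0.0571). For the other pathway lists the same permutation test gave p from 0.257 to 0.914, so the value printed is the smallest of them. That mean weighs every listed gene alike, also the gene that did not pass the count filter. That gene, Fgf21, had 0.869 ± 0.560 CPM in cKO and 0.185 ± 0.192 CPM in WT (SD, n = 4 each). The list was chosen with earlier results of these data known, so its p is a description and not a test of adrenergic output. Pnpla2, the lipase that starts triglyceride breakdown, had 2494 ± 367 CPM in cKO and 2465 ± 223 CPM in WT (SD, n = 4 each).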

How the data were processed

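The authors deposited 1 table of estimated counts per Ensembl gene for the 8 libraries. Per the submitters' processing notes, StringTie, Salmon and edgeR were used with the build GRCm38. Not given in the sources used here are the versions and settings of these tools and the strand and annotation release of the counting. The kit was NEBNext Ultra II RNA, per the labels' protocols. In estimated counts, reads that match several transcripts are shared out between them.

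Symbols and positions came from GENCODE M21 (GRCm38), which named 54131 of 54385 identifiers (99.5%). Libraries were grouped by title. Values were rounded to whole counts, filtered with filterByExpr, scaled by TMM and tested over all 14553 genes that passed by quasi-likelihood with robust dispersion in edgeR 4.0.16 under R 4.3.3, Benjamini-Hochberg adjusted, at 0.05, with group as the only term. CPM values use TMM-scaled totals, and log2 CPM a prior count of 2. Shares, sums and relations used exact permutation tests (Python 3.11.15). Genes that did not pass the filter are given by their counts and by the fit without a filter.

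The members, gene lists and tests were chosen with earlier results of these data known. All 8 receptor genes are named, and Adcy3. From each pathway list the called genes are named or, with none called, the 2 with the highest level per kilobase, and for each receptor gene with at least 1 CPM the 3 genes most alike. From the catecholamine list 1 gene is not reported here. The markers and the genes with an unadjusted p under 0.05 were named after their values were seen.

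On simulated counts for cKO against WT (14194 genes passing), the test recovered 10.4% of 67 genes given a 1.5-fold change, 43.3% of the 67 with a 2-fold change and 84.8% of the 66 with a 4-fold change, with 7 false among 99 calls. The data gave 10 calls. The adjusted threshold is less strict where more genes are called, so these shares may overstate recovery in the data. No 2 libraries of a group agreed within sampling noise (lowest chi-square per degree of freedom 14.5, using genes whose counts in both together reached 20). Alternatives were other scalings, DESeq2 1.42.0, limma 3.58.1 (voom), other filters, a replicate block, WT replicate 4 moved to cKO, leaving out single libraries, mitochondrial genome genes removed, a muscle covariate, other gene lengths and, added after seeing the data, a brown adipocyte covariate and Adrb3 summed with Gm45470.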

Additional observations from a re-analysis of the deposited data

Results flagged for a closer look

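The values of 62 groups of 4 libraries were examined for a library far from the other 3, which chance alone gives in about 1 in 20 groups, and 5 were found. The summed level of the 8 receptor genes was 62.4 CPM per kilobase in cKO replicate 3, against 78.3 to 79.9 in the other cKO libraries. The share of Adra1d in that sum was 8.29% in cKO replicate 4, against 6.32% to 6.50% in the other cKO libraries. The Schwann cell marker score was 2.05 in cKO replicate 1, against 1.61 to 1.68 in the other cKO libraries. Adcy3 stood at 61.6 CPM in WT replicate 3, against 112 to 118 CPM in the other WT libraries. Gm14285, the antisense neighbour of Adra1d, had 0.285 CPM in WT replicate 2, against 0.0495 to 0.0753 CPM in the other WT libraries, on 1 to 4 counts per library.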

How the results depend on the processing

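No receptor gene was called under any of the 20 alternatives, and for the 5 filtered genes the lowest adjusted p over them was 0.603 (Adra2b). Adra2b kept a positive log2 fold change throughout (0.18 to 0.68). Near 0, signs turned: Adrb3 to -0.0003 without a filter and -0.05 with the muscle covariate, Adra1a to -0.04 with the muscle covariate, and Adra1d to 0.15 with limma-voom, 0.05 with quality weights, 0.05 with the replicate block, 0.34 with WT replicate 4 moved to cKO and 0.09 with the brown adipocyte covariate. The cause was not tested. With 1 library left out, log2 fold changes ran from -0.07 to 0.24 (Adrb1), -0.04 to 0.10 (Adrb3), -0.10 to 0.15 (Adra1a), -0.21 to 0.21 (Adra1d), -0.53 to 0.11 (Adra1b), -0.48 to 0.08 (Adra2c, 0.04 without WT replicate 3) and -1.66 to -0.49 (Adra2a), the difference in Adrb3 share from -1.83 to 1.00 percentage points, and that in summed level from -1.76 to 5.19 CPM per kilobase. Over all genes DESeq2 called 46, edgeR without a filter 93 and edgeR with WT replicate 4 moved 1, against 10, and with a library left out 8 to 14. Pathway genes called were 2 without a filter, 0 with the replicate block and 0 with WT replicate 4 moved, against 1. Adcy3 had a log2 fold change of -2.23 (adjusted p = 0.225) with the replicate block and -1.26 (0.747) with WT replicate 4 moved. Whether the replicate numbers pair the libraries is not settled: same-numbered deviations correlated at -0.464, 0.035, 0.409 and 0.00159. No cKO library was closest to the WT library of its own number. With the replicate block the SE was lower for Adra1a and Adra1d, at 0.09 and 0.19, against 0.20 and 0.29 without it. For Adrb1, Adrb3 and Adra2b it was higher, at 0.20, 0.13 and 0.40, against 0.18, 0.12 and 0.34. Relations with marker lists that passed numbered 0 by Spearman rho and 0 to 2 with a library left out. Depth limits Adra1b, Adra2a and Adra2c, with 0 to 13 counts per library.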
